A study of Mus musculus with 8 samples.

Results

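Zinc transporters, metallothioneins and the zinc sensor Mtf1 were followed in 3T3-L1 cells as a set of 10 mouse genes. The set held the exporters Slc30a1 and Slc30a5, the importers Slc39a6, Slc39a7, Slc39a8, Slc39a10 and Slc39a14, the metallothioneins Mt1 and Mt2, and Mtf1. They were 10 of the 13785 named genes measured, within 25799 genes and unnamed probes. The 10 genes were chosen by name with their differences between times and between supernatants already known, so their values are given here as a description, with standard errors and no p-value.

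The arrays measured total RNA of 3T3-L1 cells, a mouse fibroblast line that was grown in 10% fetal calf serum and held in adipogenic medium for 1 week. The cells then received, at a 2-fold dilution, culture supernatant of HL-60 cells, a human leukemia line made macrophage-like by 5 days with the phorbol ester PMA at 30 nM. The HL-60 cells carried a mock vector (control supernatant) or a knockdown of USP2, a ubiquitin-specific protease (KD supernatant). RNA was taken after 3 h or 6 h, which gave 4 groups of 2 arrays. Since USP2 was knocked down in the human donor cells, whose RNA was not measured, the mouse arrays do not check it. All 4 groups received a supernatant, and no cells without one were analysed here. The labels name biological replicates but not whether wells shared a batch of supernatant, so p-values cover only the variation among these samples, which may be technical.

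All arrays lay on 1 slide scanned on 1 day. Control arrays held columns 1 and 2 of the slide and KD arrays columns 3 and 4, with 3 h in row 1 and 6 h in row 2. Supernatant and slide column, and time and slide row, therefore cannot be told apart. Signals well above background made up between 50.7% and 55.9% of 59305 spots on an array, and the 2 arrays of a group correlated at 0.988 to 0.998 across genes. Patches of raised neighbouring spots made up 0.924% and 1.24% of the control arrays at 6 h, 0.443% and 0.113% of the KD arrays at 6 h, and at most 0.086% of the 3 h arrays. Of 11 adipocyte markers, Pparg, Cebpa, Fabp4 and Lpl were well above background on all 8 arrays, while Adipoq, Cidec, Cd36, Lep, Cfd and Slc2a4 were above it on none. All 6 markers of preadipocytes and fibroblasts were above background on all 8.

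Zinc moves through cells in the hands of opposed transporter families. Slc30 proteins (ZnT) lower cytosolic zinc by carrying it out of the cell or into organelles, and Slc39 proteins (ZIP) raise it by carrying zinc in from outside or out of organelles. Free zinc activates the transcription factor MTF1, which binds metal response elements in promoters, among them those of the metallothionein genes, whose small proteins bind zinc, and of Slc30a1. In fat cells Slc39a14 is known as a transporter that appears early in adipogenesis, and in liver as one induced by inflammatory cytokines.

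Promoter sequences from RefSeq (build GRCm38.p6) were at hand for 8 of the 10 genes, with 10 promoters among them. The 250 bases before each start were searched on both strands for the metal response cores TGCACNC and TGCGCNC. Slc30a1, Mt1 and Mt2 are shown because they are textbook targets of MTF1 and their levels had different time courses. Capitals mark the cores, which on the minus strand read as the reverse complement. The windows are chr1:191906531-191906780 for Slc30a1, chr8:94172368-94172617 for Mt2 and chr8:94178839-94179088 for Mt1, all on the plus strand.
Slc30a1: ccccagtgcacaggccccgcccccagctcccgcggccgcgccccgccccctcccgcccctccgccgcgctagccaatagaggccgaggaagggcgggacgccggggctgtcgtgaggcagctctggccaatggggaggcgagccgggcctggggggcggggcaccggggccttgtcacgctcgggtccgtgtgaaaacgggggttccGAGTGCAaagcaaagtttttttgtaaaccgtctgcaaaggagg
Mt2: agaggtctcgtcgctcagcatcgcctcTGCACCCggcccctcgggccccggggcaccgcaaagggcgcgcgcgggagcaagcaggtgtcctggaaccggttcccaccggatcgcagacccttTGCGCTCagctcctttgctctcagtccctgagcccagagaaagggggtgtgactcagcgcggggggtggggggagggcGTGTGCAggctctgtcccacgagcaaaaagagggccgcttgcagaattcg
Mt1: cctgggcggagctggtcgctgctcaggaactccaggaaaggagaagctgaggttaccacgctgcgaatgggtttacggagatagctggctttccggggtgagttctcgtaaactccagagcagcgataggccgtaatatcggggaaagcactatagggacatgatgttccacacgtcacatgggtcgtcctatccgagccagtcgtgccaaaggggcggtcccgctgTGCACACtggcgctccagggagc
The Slc30a1 window held 1 core, 43 bases before the start on the minus strand. Mt2 held 3, at 223, 128 and 50 bases before the start, and Mt1 held 1 at 23 bases. These counts depend on where the window ends and on the annotated start, which was not checked. They are therefore not the number of metal response elements of a gene, and cores just past the window of Mt1 are not in its count. With 50 bases after the start added, Mt1 and Slc30a1 also held TGCGCNC. Among the others, Slc30a5 had a core at 48 bases and 1 of the 2 Slc39a8 promoters had one at 19 bases. In all, 5 of the 10 promoters, from 5 of the 8 genes, held either core, where 21.4% of 32851 mouse promoters of the same length did. Of the 5, 3 are the textbook targets, so nothing is read from this share. No such core was in the windows of Mtf1, Slc39a7 or Slc39a10, which says only that these letters are not there. Of the other motifs searched, the STAT pattern TTCNNNGAA was in 7.02% of all promoters and in Slc39a10 alone of the 8 genes. The antioxidant pattern TGACNNNGC was in 10.2% of all promoters and in those of Mt2, Slc30a1 and Slc39a8. These matches are letters in a window, not measured binding sites.

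Each level below is the log2 of the scanner's processed signal minus the 75th percentile of that array, so 1 unit is a 2-fold step and levels of different probes cannot be compared. The 10 genes had 12 probes, 3 of them for Mtf1 and 1 for each other gene. The probe used for each gene was well above background on all 8 arrays. Every difference is given with the standard error of 1 limma fit over all 8 arrays, n = 2 per group.

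Slc30a1, the exporter of the plasma membrane, had by far the widest spread of group means among the 10 genes. Its levels were 0.92 and 0.93 with control supernatant at 3 h, 0.94 and 1.07 with KD supernatant at 3 h, -2.34 and -2.37 with control at 6 h, and -2.50 and -2.50 with KD at 6 h. All 4 arrays at 6 h lay below all 4 at 3 h. The 6 h minus 3 h difference was -3.28 ± 0.067, or 9.69-fold lower, with control supernatant. With KD supernatant it was -3.50 ± 0.067, or 11.3-fold lower. Of 25799 features, 8 had a lower time difference with control supernatant and 2 with KD. Beside that step the supernatants stood close together. KD was higher by 0.079 ± 0.067 at 3 h and lower, by -0.15 ± 0.067, at 6 h, and the sign at 6 h turned to 0.038 when arrays were scaled to their medians. In the order of the group means, the 3 h groups came first with KD above control by about 1 standard error, followed by control and KD at 6 h. The raw signal of this probe ran from 94.6 to 1054 units.

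Slc30a5, an exporter that loads zinc into the secretory pathway, moved the same way on a smaller scale. Levels were 3.24 and 3.15 (control, 3 h), 3.12 and 3.11 (KD, 3 h), 2.54 and 2.53 (control, 6 h), and 2.52 and 2.59 (KD, 6 h). The 3 h and 6 h arrays did not overlap. The time difference was -0.66 ± 0.063 with control and -0.56 ± 0.063 with KD supernatant, or 1.58-fold and 1.47-fold lower. The supernatants differed by -0.077 ± 0.063 at 3 h, and by 0.022 ± 0.063 at 6 h, where the arrays overlapped and quantile normalization turned the sign.

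**Figure D1:**
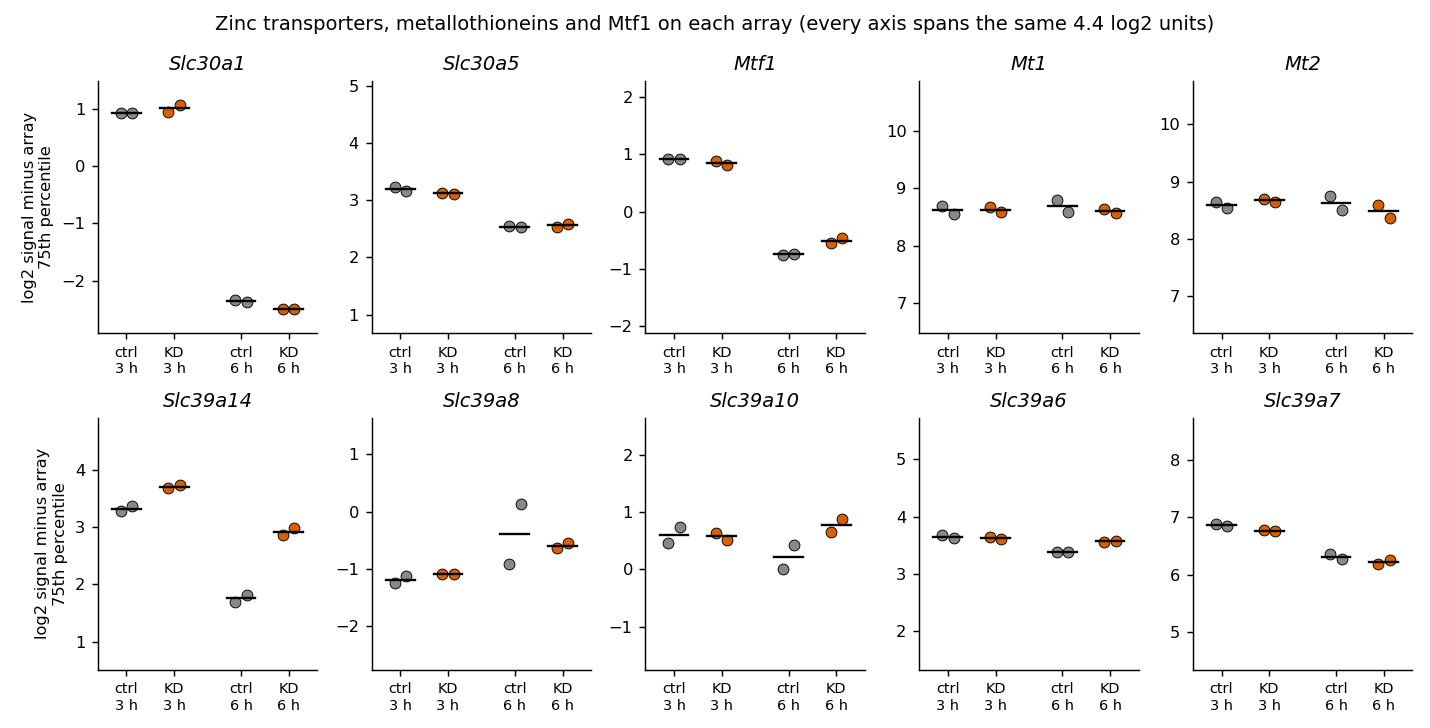
Levels of the 10 genes on each of the 8 arrays, as log2 signal minus the array's 75th percentile, for control (grey) and KD (orange) supernatant at 3 h and 6 h; bars are means of 2 arrays. Slc30a1 drops from about 1 at 3 h to between -2.34 and -2.50 at 6 h in both supernatants, Slc39a14 separates the supernatants most at 6 h, and Mt1 and Mt2 stay within 8.37 to 8.80.

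Slc39a14, an importer, sits in the plasma membrane and carries zinc, iron and manganese inward. Its levels were 3.28 and 3.36 (control, 3 h), 3.68 and 3.73 (KD, 3 h), 1.68 and 1.82 (control, 6 h), and 2.86 and 2.98 (KD, 6 h). No array of any group overlapped an array of another, and the order from high to low was KD at 3 h, control at 3 h, KD at 6 h, control at 6 h. KD minus control was 0.39 ± 0.082 at 3 h, or 1.31-fold higher, and 1.17 ± 0.082 at 6 h, or 2.25-fold higher. At 6 h 232 of 25799 features had a larger positive difference. From 3 h to 6 h the level was 2.96-fold lower with control supernatant (-1.57 ± 0.082) and 1.73-fold lower with KD supernatant (-0.79 ± 0.082). The difference between the supernatant effects, 6 h minus 3 h, was 0.78 ± 0.12, which is also the difference between these time changes. The KD difference at 6 h stayed between 1.10 and 1.35 in the 20 alternatives run, which include leaving out each array.

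Markers of macrophages and leukocytes were set beside Slc39a14, since that gene responds to inflammatory signals. Of 6 markers 5 were on the array; Itgam, Csf1r and Cd14 were above background on all 8 arrays, and Ptprc and Adgre1, which define leukocytes and macrophages, on none. The log2 of the summed signals of the 3 measured markers, in which the brightest weighs most, was taken on each array. It was 5.38 to 5.45 in control and 5.71 to 5.75 in KD at 3 h. At 6 h it was 5.19 to 5.38 in control and 5.21 to 5.32 in KD. The sum was thus higher with KD at 3 h and overlapped at 6 h, where the Slc39a14 difference was larger. The part of these markers in the Slc39a14 result was not tested.

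Slc39a10, an importer of the plasma membrane, was the other importer among the 10 genes with a sizeable supernatant difference at 6 h, which did not pass the fit. Outside the 10, this difference was -0.78 ± 0.17 for Slc39a2 and 0.45 ± 0.12 for Slc39a4. The levels of Slc39a10 were 0.47 and 0.74 (control, 3 h), 0.63 and 0.52 (KD, 3 h), 0.010 and 0.42 (control, 6 h), and 0.66 and 0.88 (KD, 6 h). KD arrays at 6 h lay above the control arrays at 6 h, by 0.55 ± 0.17, and at 3 h the arrays overlapped. The time difference was -0.39 ± 0.17 with control and 0.20 ± 0.17 with KD supernatant. The control arrays at 6 h were spread more widely than those of the other groups. Without control replicate 1 at 6 h the KD difference was 0.34 and the time difference with control supernatant -0.18, and without replicate 2 they were 0.76 and -0.59. The time difference with control was -0.52 or -0.25 without control replicate 1 or 2 at 3 h. With KD supernatant the time difference was 0.31 or 0.084 without KD replicate 1 or 2 at 6 h, and 0.36 with no scaling.

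Slc39a8, an importer related to Slc39a14, had values that turned on 1 array. Levels were -1.25 and -1.12 (control, 3 h), -1.08 and -1.09 (KD, 3 h), -0.91 and 0.13 (control, 6 h), and -0.64 and -0.55 (KD, 6 h). All 6 h arrays lay above all 3 h arrays, by 0.80 ± 0.31 with control and 0.50 ± 0.31 with KD supernatant. Control replicate 2 at 6 h stood far above the other 7 arrays. Without it the time difference with control supernatant was 0.28, and without control replicate 1 at 6 h it was 1.32. KD minus control at 6 h, -0.21 ± 0.31, became 0.31 without replicate 2 and -0.72 without replicate 1.

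Slc39a6 and Slc39a7 had small differences, with the 2 arrays of each group close together. Slc39a6, an importer of the plasma membrane, read 3.68 and 3.62 (control, 3 h), 3.64 and 3.61 (KD, 3 h), 3.37 and 3.39 (control, 6 h), and 3.55 and 3.58 (KD, 6 h). The control arrays at 6 h lay below the other 6. The time difference of Slc39a6 was -0.27 ± 0.058 with control and -0.060 ± 0.058 with KD supernatant, and the latter became positive with no scaling, quantile normalization or normexp correction. The control value shrank to -0.076 with quantile normalization and -0.023 with normexp correction, and was -0.47 with array medians. KD exceeded control at 6 h by 0.19 ± 0.058, a value that ran from 0.087 with normexp correction to 0.37 with array medians, and at 3 h the arrays overlapped. Slc39a7 releases zinc from the endoplasmic reticulum and Golgi into the cytosol. Its levels were 6.89 and 6.86 (control, 3 h), 6.77 and 6.76 (KD, 3 h), 6.36 and 6.27 (control, 6 h), and 6.19 and 6.25 (KD, 6 h). The 6 h arrays lay below the 3 h arrays, by -0.55 ± 0.063 with control and -0.54 ± 0.063 with KD supernatant. The supernatants differed by -0.11 ± 0.063 at 3 h and -0.094 ± 0.063 at 6 h, where scaling to array medians gave 0.090.

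The metallothioneins, which bind zinc and copper in the cytosol, did not follow the time course of Slc30a1. Mt1 read 8.70 and 8.56 (control, 3 h), 8.67 and 8.59 (KD, 3 h), 8.80 and 8.58 (control, 6 h), and 8.65 and 8.57 (KD, 6 h). All 4 groups of Mt1 overlapped, and its time difference was 0.061 ± 0.099 with control and -0.025 ± 0.099 with KD supernatant. Its supernatant difference was 0.0042 ± 0.099 at 3 h and -0.082 ± 0.099 at 6 h, and each of these 4 signs turned under another scaling. Mt2 read 8.64 and 8.54 (control, 3 h), 8.70 and 8.64 (KD, 3 h), 8.75 and 8.51 (control, 6 h), and 8.60 and 8.37 (KD, 6 h). The Mt2 time difference was 0.042 ± 0.12 with control supernatant, a sign that turned with array medians, and -0.19 ± 0.12 with KD supernatant, where the arrays did not overlap. KD minus control for Mt2 was 0.086 ± 0.12 at 3 h and -0.15 ± 0.12 at 6 h, the latter becoming 0.037 with array medians. The spot of Mt2 lay in a bright patch on control replicate 2 at 6 h. With such patches masked, KD minus control at 6 h was -0.27 and the time difference with control supernatant was 0.16, the same values as without that array. Without control replicate 1 at 6 h they were -0.030 and -0.076. Leaving out KD replicate 1 or 2 at 6 h gave KD minus control of -0.26 or -0.031, and a time difference with KD supernatant of -0.31 or -0.074. Raw signals ran from 189321 to 238365 for Mt1 and from 192258 to 226860 for Mt2, with saturation set at 777615 in the file headers and 0 saturated spots.

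Mtf1, the zinc sensor itself, was lower at 6 h on the probe that represented it. That probe, A_52_P467266, read 0.92 and 0.92 (control, 3 h), 0.89 and 0.81 (KD, 3 h), -0.76 and -0.73 (control, 6 h), and -0.55 and -0.46 (KD, 6 h). The 6 h arrays lay well below the 3 h arrays. The time difference was -1.67 ± 0.064, or 3.17-fold lower, with control and -1.36 ± 0.064, or 2.57-fold lower, with KD supernatant. KD was higher than control at 6 h by 0.24 ± 0.064, and at 3 h the difference was -0.069 ± 0.064, which turned to 0.0072 with array medians.

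The other Mtf1 probes did not show the step. Probe A_55_P2069277 read -2.20 and -2.20 (control, 3 h), -2.17 and -1.95 (KD, 3 h), -1.85 and -2.07 (control, 6 h), and -1.85 and -1.82 (KD, 6 h), and its 6 h means were higher by 0.24 and 0.22. Probe A_52_P55666 was well above background on 0 of the 8 arrays. The mean of both tested probes gave time differences of -0.71 with control and -0.57 with KD supernatant. Both the direction and the size of the Mtf1 difference therefore rest on 1 probe, and which transcripts each probe reads was not tested.

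**Figure D2:**
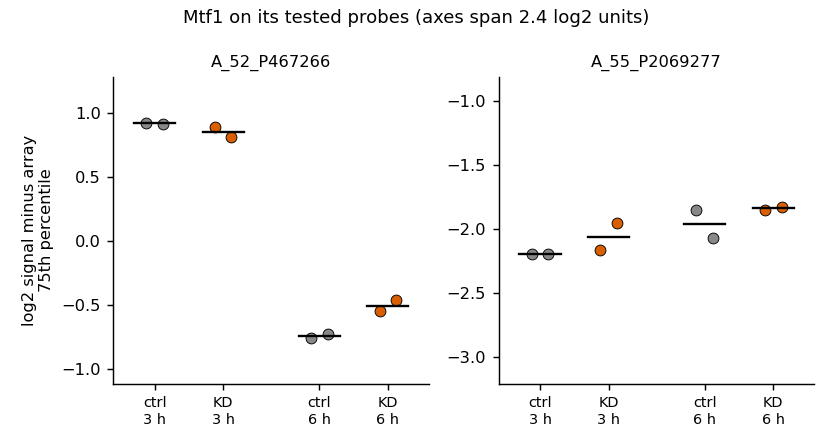
Both tested Mtf1 probes on each array, as log2 signal minus the array's 75th percentile, with bars at the means of 2 arrays per group. The probe on the left falls from 0.92 to -0.74 with control supernatant, while the probe on the right is higher at 6 h by 0.24 (control) and 0.22 (KD).

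With control supernatant 6 of the 10 genes passed the fit across all features at an adjusted p under 0.05 and all 6 were lower at 6 h (Slc30a1, Slc30a5, Slc39a6, Slc39a7, Slc39a14 and Mtf1), where 39.9% of all features passed, 16.3% higher and 23.6% lower. With KD supernatant 5 passed, again all lower and without Slc39a6, beside 39.9% of all features, 17.7% higher and 22.2% lower. Nothing is read from these counts, since the choice of the genes used the same comparisons. Mtf1 is counted by its representative probe, and its other tested probe was higher at 6 h. The median time difference of the 10 genes was -0.47 with control and -0.37 with KD, beside -0.074 and -0.11 over all features. The arrays of 3 h and 6 h did not overlap for 8 and 9 of the 10 genes, beside 67.4% and 77.5% of all features.

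Between supernatants 0 of the 10 genes passed at 3 h, where 0.244% of features did (0.225% higher, 0.0194% lower). Of the 10, 1 passed at 6 h, Slc39a14, where 2.3% of features did (1.6% higher, 0.698% lower). At 3 h 7 and at 6 h 6 of the 10 genes had arrays that did not overlap, beside 47.4% and 47.7% of all features. The median supernatant difference of the genes was -0.0087 at 3 h and -0.030 at 6 h, beside -0.016 and 0.00022 over all features. For the difference between the supernatant effects 0 of the 10 and 0 of 25799 features passed in limma, 2272 of the latter at an unadjusted p under 0.05, and 0 to 294 passed under the alternatives. The supernatant and time comparisons share arrays, so their values are not independent of each other. The Slc39a14 pass at 6 h held in 17 of 20 alternatives and was lost with no scaling, with no filter on dim probes and with only the arrays compared. The time passes of Slc30a1 and Mtf1 held in all 20 alternatives with both supernatants. For Mtf1 the alternatives used its representative probe or the mean of both tested probes, never the other probe alone. The passes of Slc30a5, Slc39a7 and Slc39a14 held in 19 or 20. That of Slc39a6 with control supernatant held in 14. It was lost with no scaling, quantile normalization, normexp correction, no filter on dim probes and only the arrays compared, and without control replicate 1 at 3 h. Passes appeared under an alternative for Slc39a8 without control replicate 1 at 6 h (with both supernatants over time and between supernatants), for Slc39a8 over time with KD supernatant also without control replicate 2 at 6 h and with only the arrays compared, for Slc39a10 over time without control replicate 2 at 6 h, and for Mt2 over time with array medians.

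**Figure D3:**
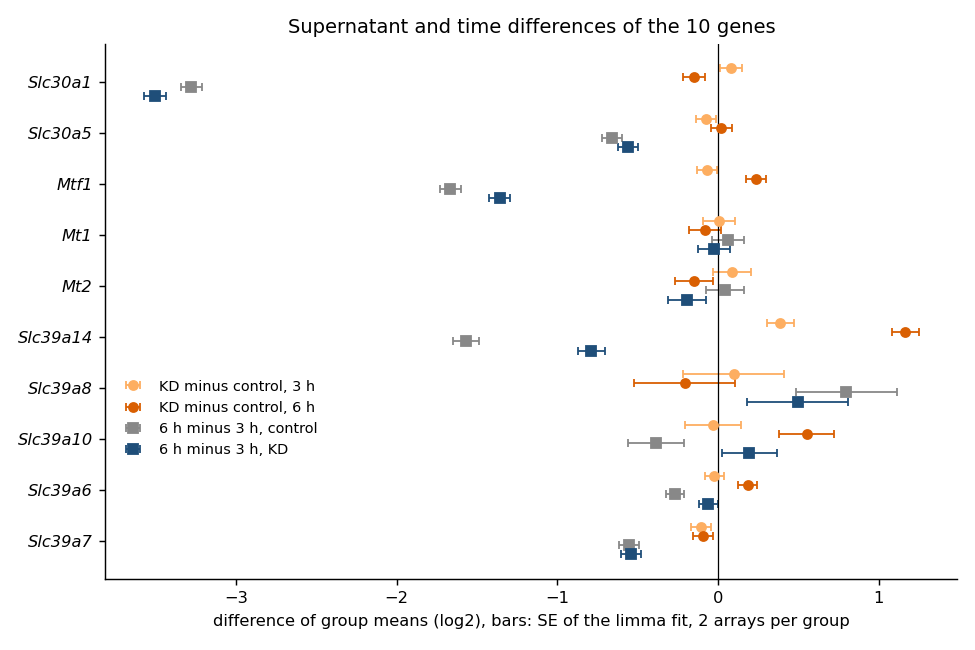
Differences of group means (log2, horizontal axis) for the 10 genes, with bars of 1 standard error, for KD minus control at 3 h and 6 h (circles) and 6 h minus 3 h in each supernatant (squares). Time differences of Slc30a1 (-3.28 and -3.50), Slc39a14 and Mtf1 (on its representative probe only) lie far below 0. The Slc39a14 KD difference of 1.17 at 6 h lies farthest above it. Signs of Mt1 and of several small differences turn with the scaling.

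The rest of the zinc transporter families was measured to see how far the time course was shared. Of 8 other Slc30 exporters 5 were measured, and 2 of them fell with each supernatant while 0 rose. Over all features 39.9% passed with each supernatant, 23.6% lower with control and 22.2% lower with KD. Nothing particular to the exporters is read from their count. Slc30a4, which loads zinc into vesicles, fell, at -0.67 ± 0.076 with control (limma, adjusted p = 0.00127) and -0.51 ± 0.076 with KD supernatant (adjusted p = 0.00374), and both calls were lost only with no scaling. Slc30a7, which like Slc30a5 serves the secretory pathway, fell, at -0.43 ± 0.12 and -0.44 ± 0.12 (adjusted p = 0.0332 and 0.0302). Its calls held in 9 and 11 of 20 alternatives and were lost without most single arrays (adjusted p up to 0.149 and 0.130). Slc30a2, Slc30a6 and Slc30a9 did not pass, with time differences from -0.10 to 0.22. Beside these values, Slc30a1 was lower at 6 h by -3.28 and -3.50.

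Of 9 other Slc39 importers 7 were measured. With control supernatant 1 rose and 2 fell, and with KD supernatant 1 rose and 3 fell. These counts stand beside 39.9% of all features passing with each supernatant, and nothing particular to the importers is read from them. Slc39a4, the zinc importer of the gut mutated in acrodermatitis enteropathica, read -1.63 and -1.63 (control, 3 h), -2.01 and -1.93 (KD, 3 h), -3.71 and -3.84 (control, 6 h), and -3.49 and -3.16 (KD, 6 h). Slc39a4 fell, at -2.14 ± 0.12, or 4.41-fold, with control (adjusted p = 0.000180) and -1.36 ± 0.12, or 2.56-fold, with KD supernatant (adjusted p = 0.000667), and kept both calls in all 20 alternatives. Slc39a9 was above background on both 3 h arrays and on neither 6 h array of each supernatant. Its level at 6 h was thus at least 1.58-fold lower with control and at least 2.00-fold lower with KD supernatant. It entered the fit only through its 3 h arrays. Its calls, counted above (limma, adjusted p = 0.00170 and 0.00843), are therefore a description and no test of a fall. The KD call was lost without KD replicate 1 at 3 h. Slc39a3, a plasma membrane importer, rose by 0.31 ± 0.073 with each supernatant (limma, adjusted p = 0.0205 and 0.0193). Its calls held in 13 and 14 of 20 alternatives, with adjusted p up to 0.444 and 0.145. Both were lost with array medians, with no scaling, with no filter on dim probes and without some single arrays. The control call was also lost with only the arrays compared. Slc39a2 fell, at -0.57 ± 0.17, with KD supernatant (adjusted p = 0.0414), in 11 of 19 alternatives and with 1 of 2 KD arrays at 6 h above background. Between supernatants 0 of the 5 exporters and 0 of the 7 importers passed in limma, with 0 and 1 at an unadjusted p under 0.05 at 3 h and 1 and 3 at 6 h. Over all features only 0.244% passed at 3 h and 2.3% at 6 h. KD minus control at 6 h was 0.45 ± 0.12 for Slc39a4 and -0.78 ± 0.17 for Slc39a2, beside 0.55 ± 0.17 for Slc39a10.

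**Figure D4:**
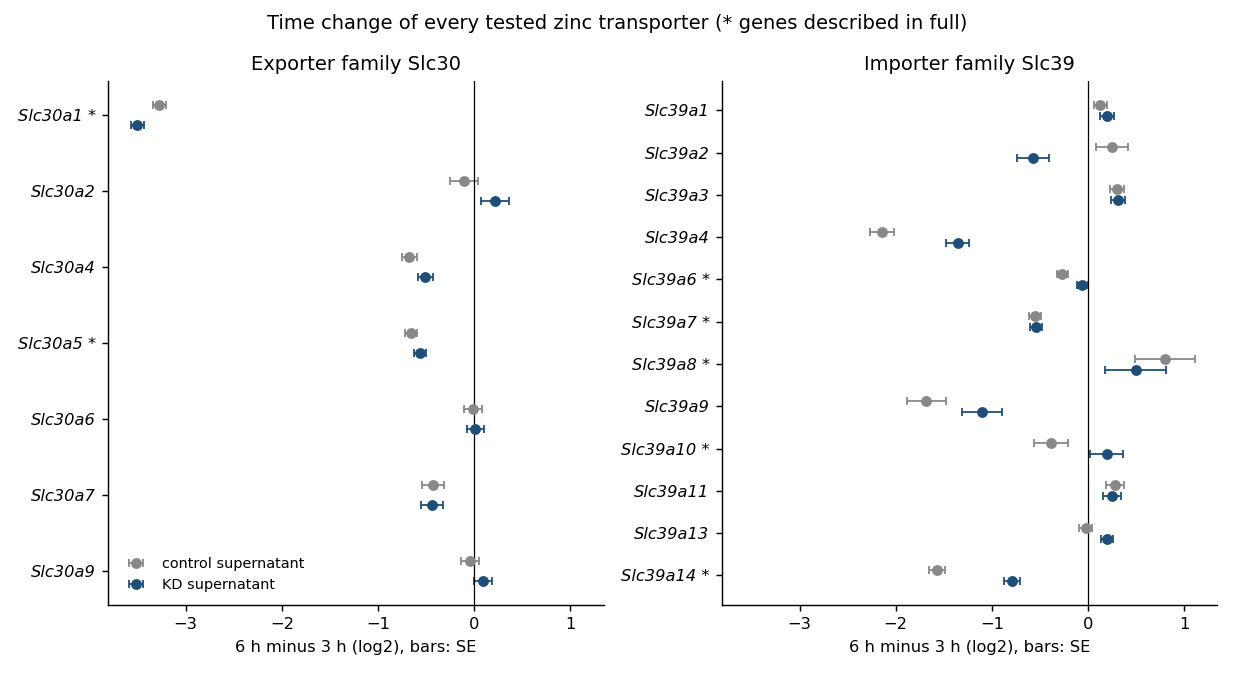
Time difference, 6 h minus 3 h (log2, horizontal axis), of every measured Slc30 and Slc39 gene with control (grey) and KD (blue) supernatant; bars are 1 standard error and asterisks mark the genes described in full. Slc30a1 at -3.28 and -3.50 lies apart from the other exporters, Slc39a4 and Slc39a14 lie lowest among the importers above background at both times, and Slc39a9, not above background at 6 h, shows fitted values and not its bounds.

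The remaining metallothioneins, Mt3 and Mt4, did not pass in any comparison, with time differences of 0.31 and -0.0032 with control supernatant, and 1 of them had an unadjusted p under 0.05 between supernatants at 6 h. Of 8 other genes described as MTF1 targets, all measured, 3 rose and 2 fell with control supernatant and 2 rose and 2 fell with KD supernatant. Ndrg1, a stress-response gene also induced by hypoxia, rose by 1.29 ± 0.071 and 1.13 ± 0.071 (adjusted p = 0.000161 and 0.000234). Gclc, which makes the first step of glutathione synthesis, fell, at -0.85 ± 0.069 and -0.62 ± 0.069 (adjusted p = 0.000456 and 0.00129). Txnrd2 also rose and, with KD supernatant, Selenow fell. These lists are set beside 39.9% of all features passing with each supernatant, and nothing particular to them is read from the counts.

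Slc40a1, the iron exporter ferroportin and 1 of the 8 other described MTF1 targets counted above, differed between the supernatants. Its levels were 0.52 and 0.53 (control, 3 h), 0.50 and 0.40 (KD, 3 h), 1.35 and 1.32 (control, 6 h), and 0.60 and 0.81 (KD, 6 h). It rose with control supernatant by 0.81 ± 0.088 (adjusted p = 0.00116), and at 6 h it was lower with KD, at -0.63 ± 0.088, or 1.55-fold (adjusted p = 0.0305). The 6 h call held in 8 of 20 alternatives, with adjusted p from 0.00498 to 0.352, and was lost without any single array other than control replicate 2 and KD replicate 2 at 6 h.

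Among 7 measured genes of other zinc flux and zinc regulators, 1 rose (Mcoln1) and 2 fell (Crip1 and Crip2) with control supernatant, and 1 rose and 3 fell with KD, where Tmc8 was added. Crip2, a small LIM-domain protein, fell, at -1.69 ± 0.089 and -1.61 ± 0.089 (adjusted p = 0.000153 and 0.000182). Of 18 measured copper genes 4 rose and 5 fell over time with each supernatant. Of 18 iron and manganese genes 3 rose and 7 fell with control and 1 rose and 7 fell with KD supernatant. The control count includes Slc40a1, which is also counted among the MTF1 targets. Over all features 39.9% passed with each supernatant. The smallest p-values of these lists over time included falls of Slc31a1, Sco1, Sco2, Hmox1, Ireb2, Slc11a2, Ncoa4 and Tfrc and rises of Steap4 and Steap2, each with at least 1 supernatant. Steap4, a metalloreductase for iron and copper, was higher with KD at 6 h by 0.72 ± 0.093, or 1.64-fold (adjusted p = 0.0260; 0.00810 to 0.212 over 20 alternatives, 10 of which kept the call). Slc25a37, the mitochondrial iron importer mitoferrin, was higher with KD at 6 h by 0.49 ± 0.076, or 1.41-fold (adjusted p = 0.0390; 0.0228 to 0.418 over 20 alternatives, 6 of which kept it). Steap4 lost its call without either KD array at 3 h or 6 h or control replicate 1 at 6 h, and Slc25a37 without any single array other than control replicate 2 at 6 h.

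Over all 75 other zinc and metal genes, 64 were measured. At 3 h 0 of the 64 passed between supernatants in limma, with 5 at an unadjusted p under 0.05 and 0 to 2 passing under the alternatives. At 6 h 2 passed higher and 1 lower, or 3 higher and 0 lower with arrays scaled to their medians. Over time 11 rose and 20 fell with control supernatant and 9 rose and 22 fell with KD supernatant, beside 39.9% of all features passing each time. Scaling moved that split. With control supernatant it was 5 and 27 with array medians, 15 and 18 with quantile normalization and 18 and 20 with normexp correction. With KD supernatant it was 7 and 10 with no scaling, 15 and 21 with quantile normalization and 17 and 24 with normexp correction. The median of the 64 was -0.060 and -0.13 over time, and 0.00038 and 0.017 between supernatants at 3 h and 6 h.

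Profiles closest to those of the 3 genes with the widest range were found by Euclidean distance between log2 profiles over the 8 arrays, each centred on its own mean. For Slc30a1 these were Gzmm (distance 0.543), Serpinf2 (0.644) and Celsr3 (0.705), whose time differences with control supernatant were -3.12, -3.43 and -3.12. For Slc39a14 they were Cd300lb (0.287), Sema7a (0.314) and Pmepa1 (0.330). These 3 were higher with KD at 6 h by 0.93, 1.20 and 0.87, beside 1.17 for Slc39a14. For Mtf1 they were Clint1 (0.120), Mipol1 (0.136) and Nt5dc3 (0.149), lower at 6 h with control supernatant by -1.58, -1.63 and -1.60. Because the distance uses all 8 arrays, these genes share the time and supernatant differences of the profile they were matched to, and their values are a description only.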

How the data were processed

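The deposited scanner files of 1-colour Agilent arrays came from Feature Extraction, version 10.7.3.1 per the submitters' processing notes. Per the file headers, the processed signal is a linear intensity with background subtracted and no scaling between arrays. The deposited value table holds log2 values that differed from the log2 of that signal by a constant per array (r = 1.00; medians from -4.23 to -3.95, not centred per gene), and served as an alternative. Deposited median spot and background intensity fed the normexp alternative (offset 50), where mean intensity had been planned.

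Outlier spots (163 to 319 per array) were dropped, and each array's 75th percentile was subtracted on the log2 scale. Of 55681 probes, 27235 were named through RefSeq accessions and 20 by symbol (assembly GRCm38.p6, names only), and 28426 had no name here. A probe entered when both arrays of 1 or more groups were well above background (30113 did), and the brightest probe stood for a gene, which left 25799 features. A gene above background in only 1 of the groups compared has its fold as a bound against the lowest signal counted as above background.

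A limma 3.58.1 fit of 4 group means (R 4.3.3; 4 residual, 1.74 prior degrees of freedom), tested on simulated data, used Benjamini-Hochberg adjustment across every feature. Groups and replicate numbers came from the labels. Deviations of same-numbered arrays correlated at -0.047 to 0.087 over 6 pairs of groups, so the numbers were not taken to pair arrays. In the simulated data, changes were set between supernatants at 6 h. The fit recovered 10% of changes of 0.5 log2 units, 64% of changes of 1, 60% of changes of -1 and 94% of changes of 2. A gene that did not pass may therefore still have changed. The number of arrays limits the precision. The 10 genes, 7 lists of other zinc and metal genes and promoter patterns were chosen with earlier results of these data known. Named genes were the 10, up to 4 passing genes per list and comparison by smallest p, and up to 3 nearest profiles. Alternatives were 12 settings and leaving out each of 8 arrays. Tables and figures used matplotlib 3.10.9, pandas 2.3.3 and numpy 2.4.6 under Python 3.11.15.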

Additional observations from a re-analysis of the deposited data

Results flagged for a closer look

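Slc30a1 differed between supernatants in opposite directions at the 2 times, every KD array lying above the control arrays at 3 h and below them at 6 h. KD minus control was 0.079 ± 0.067 at 3 h and -0.15 ± 0.067 at 6 h, and the latter was 0.038 with arrays scaled to their medians. The 3 h value was 0.014 without KD replicate 2 and 0.14 without KD replicate 1 at 3 h. Mtf1 did the reverse on its representative probe, with -0.069 at 3 h and 0.24 at 6 h, and the 3 h value was 0.0072 with array medians and 0.035 as the mean of both tested probes. Slc39a10 was lower at 6 h than at 3 h with control supernatant, at -0.39, and higher with KD supernatant, at 0.20. Leaving out 1 array gave -0.59 to -0.18 and 0.084 to 0.31 for these values. These contrasts were picked out because no arrays overlapped in either direction. Between supernatants the arrays did not overlap for 47.4% of all features at 3 h and 47.7% at 6 h. Over time they did not overlap for 67.4% with control and 77.5% with KD supernatant. Such separation is therefore common, and the difference between the effects was not tested for these genes alone. In the limma fit across all features 0 of 25799 passed for that difference. Groups of 2 arrays were too small to look for single outlying arrays.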

How the results depend on the processing

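The time differences of Slc30a1, Slc30a5, Slc39a7 and Slc39a14 and the KD differences of Slc39a14 kept their sign in all 20 alternatives. So did the time differences of Mtf1, but no alternative used its other tested probe alone, which was higher at 6 h. Other small differences did not always keep their sign, and not every turn is given with the gene. KD minus control at 3 h turned in 3 alternatives for Slc39a6 (-0.022) and in 3 for Slc39a10 (-0.030). For Slc30a5 at 6 h (0.022) it turned with quantile normalization, with normexp correction and without KD replicate 2 at 6 h. Slc30a1 ranged from -3.48 to -2.68 with control and from -3.60 to -2.83 with KD supernatant. Over all features, calls between supernatants at 3 h (63) were 25 with array medians, 210 with normexp correction, 193 for probes above background on all 8 arrays, 299 with array weights, and 0 with no scaling, with no filter or with only the arrays compared. At 6 h (593, 413 higher and 180 lower) they were 1075 with array medians (967 higher, 108 lower), 96 with no scaling (51 higher, 45 lower), 18 with no filter, 231 with array weights and 0 with only the arrays compared. Over time, calls with no scaling were 5739 with control (10293 as reported) and 5498 with KD supernatant (10300 as reported). The split between higher and lower moved from 4200 and 6093 to 2649 and 9734 with array medians (control), and from 4566 and 5734 to 3446 and 7063 with array medians or 3684 and 1814 with no scaling (KD). The difference of effects (0) gave 1 with array medians, 11 with no scaling, 11 with quantile normalization, 7 with normexp correction and 4 for probes above background on all arrays. Array medians moved the median of all features to 0.19 at 6 h between supernatants and to -0.27 over time with control supernatant.

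Calls among the 64 other zinc and metal genes at 3 h were 1 for probes above background on all arrays and 2 with array weights. At 6 h (3) they were 5 with normexp correction and 0 with no scaling, no filter, array weights or only the arrays compared. Over time they were 20 with control and 17 with KD supernatant with no scaling, where 31 were called with each as reported. With the replicate number as a block the calls between supernatants were 0 at 3 h and 223 at 6 h over all features, and 0 of the 64 at 6 h; since the numbers were not taken to pair arrays, this is no measure of a weaker effect. With 50 bases after the start added to the promoter windows, TGCGCNC was found in 4 of the 8 genes and not 2, with Mt1 and Slc30a1 added.

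Leaving out 1 array gave 0 to 35 calls at 3 h and 144 to 1955 at 6 h over all features. The 6 h count was 1955 (1003 higher, 952 lower) without control replicate 2 at 6 h, 872 (382 higher, 490 lower) without control replicate 1 at 6 h, 220 without either control array at 3 h, 147 without either KD array at 3 h, and 144 and 356 without KD replicates 1 and 2 at 6 h. Over time it gave 7196 to 10363 with control and 6704 to 11862 with KD supernatant, and for the difference of effects 0 to 294. Among the 64 genes it gave 0 at 3 h, 0 to 5 at 6 h (5 without control replicate 2 at 6 h), 28 to 31 and 22 to 32 over time, and 0 for the difference of effects. An array left alone in its group was assumed to vary like the others. The cause of these changes was not tested. Probes near background and the number of arrays limit small differences.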
